A study of Mus musculus with 18 samples.

Results

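The immediate early genes Fos, Fosb, Jun, Junb, Atf3, Egr1, Nr4a1, Ier2, Dusp1 and Zfp36 were followed in adult mouse kidney. They were chosen by gene symbol as a known class, and 10 of the 55385 genes in the deposited tables are members. All 10 passed the filter on low counts, as did 17575 genes in all. Kidney polyA RNA was sequenced from 18 mice aged 17.1 to 18.0 weeks, in 3 groups of 6 animals with 3 males and 3 females each. Dp16 mice carry an extra copy of a stretch of mouse chromosome 16 that matches part of human chromosome 21, and serve as a model of trisomy 21. In Dp16 2xIFNRs mice that duplication is present too, but the interferon receptor genes within it are back at their normal copy number. Wild-type animals were C57BL/6J. The labels give no treatment, and library totals ran from 42157790 to 57814587 counts.

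Immediate early genes are switched on within minutes of a stimulus, without new protein synthesis, when growth factor, calcium, cyclic AMP or stress signals reach factors such as SRF with ELK1 and CREB that already sit at their promoters. Their messengers are short-lived, so a level in tissue reflects the last minutes or hours before it was taken. In kidney the class is known to respond to ischaemia, hormones and the handling of the tissue. Fos, Fosb, Jun and Junb encode subunits of the AP-1 transcription factor, and Atf3 encodes a related factor of the stress response. Egr1 and Nr4a1 encode a zinc finger factor and an orphan nuclear receptor, and Ier2 a nuclear protein. Dusp1 and Zfp36 encode brakes on the response, a phosphatase of MAP kinases and a protein that promotes decay of AU-rich messengers.

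None of the members lies on chromosome 16. In GENCODE M21 (GRCm38) Fos is at chr12:85473890-85477273 (+), Fosb at chr7:19302696-19310051 (-), Jun at chr4:95049034-95052222 (-), Junb at chr8:84974484-84978718 (-) and Atf3 at chr1:191170296-191218039 (-). Nr4a1 is at chr15:101254269-101274795 (+), Ier2 at chr8:84661331-84662852 (-), Dusp1 at chr17:26505590-26562128 (-) and Zfp36 at chr7:28376784-28380253 (-). Exons of 4 members overlap exons on the opposite strand, over 7.28% of exon bases of Jun (the antisense gene Junos), 7.52% of Junb (Prdx2), 3.6% of Zfp36 (the antisense gene Gm44710) and 0.332% of Dusp1 (Ergic1). The libraries keep the strand, but whether the counting used it is not given in the sources used here. Whether reads of those stretches were counted for the member, for the other gene or for neither is thus not known.

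The promoters of 4 members are shown because they fall into the patterns described further on. Fos and Fosb are close relatives whose levels did not pass a test of moving together between animals, and Dusp1 and Zfp36 are unrelated genes that varied together. Each sequence is the 250 bases before the transcription start in RefSeq (GRCm38.p6), 5′ to 3′ on the strand of the gene. The windows are chr12:85473640-85473889 (+) for Fos, chr7:19310046-19310295 (-) for Fosb, chr17:26508473-26508722 (-) for Dusp1 and chr7:28379229-28379478 (-) for Zfp36. Capitals mark the motifs that were searched.
Fos: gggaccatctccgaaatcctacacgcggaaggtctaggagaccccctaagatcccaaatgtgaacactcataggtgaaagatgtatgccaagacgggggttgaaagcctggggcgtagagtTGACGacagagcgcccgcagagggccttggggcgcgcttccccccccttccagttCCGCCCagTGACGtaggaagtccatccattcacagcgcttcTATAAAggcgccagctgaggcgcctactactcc
Fosb: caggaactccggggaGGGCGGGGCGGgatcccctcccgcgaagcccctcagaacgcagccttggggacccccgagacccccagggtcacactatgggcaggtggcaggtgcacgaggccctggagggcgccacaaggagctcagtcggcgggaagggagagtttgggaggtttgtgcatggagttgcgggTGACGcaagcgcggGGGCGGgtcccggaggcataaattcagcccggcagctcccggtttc
Dusp1: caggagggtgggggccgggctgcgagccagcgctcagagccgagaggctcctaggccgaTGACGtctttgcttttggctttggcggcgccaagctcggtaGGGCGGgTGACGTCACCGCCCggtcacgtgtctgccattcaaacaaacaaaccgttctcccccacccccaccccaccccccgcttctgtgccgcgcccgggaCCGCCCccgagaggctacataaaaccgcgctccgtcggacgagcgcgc
Zfp36: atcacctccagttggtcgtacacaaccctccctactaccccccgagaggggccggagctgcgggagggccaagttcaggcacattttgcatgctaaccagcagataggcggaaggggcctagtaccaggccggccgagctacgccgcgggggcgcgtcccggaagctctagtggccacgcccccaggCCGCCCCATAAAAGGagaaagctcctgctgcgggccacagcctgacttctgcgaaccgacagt

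The motifs were the cyclic AMP response element TGACGTCA and its core TGACG, the AP-1 site TGANTCA, the SRF site known as the CArG box, the GC box GGGCGG and the TATA box TATAAA, on both strands. RefSeq entries were matched for 8 of the 10 members, without Egr1 and Ier2. The core TGACG was in 6 of 8 member windows and in 17.8% of all 32851 promoter windows of the same length. For Junb, 1 of these 6, the bases after the window were not found near the opening of a GENCODE M21 transcript. The core stood at bases 129 to 125 and 66 to 62 before the start in Fos and at 60 to 56 in Fosb. In Dusp1 it stood at 191 to 187 and within the full TGACGTCA at 143 to 136, which 1.55% of all windows hold. Zfp36 had no TGACG. It had the only CArG box among the 8 windows, at bases 58 to 49, sharing 1 base with a GC box, and 1.47% of all windows hold one. The GC box was in 7 of 8 member windows and in 32.7% of all (the member windows were 58.4 to 74.4% G and C, against a median of 52.4% over all windows), the TATA box in Fos alone (bases 33 to 28) and in 12.4% of all, and TGANTCA in 0 of 8 and in 6.75% of all. These matches are letters in a window and not measured sites. Bases outside these windows and other forms of these motifs were not searched. A motif counted as missing from a window, such as the CArG box in Fos, may thus occur farther upstream or in another form.

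The members differed widely in level. On the deposited RPKM scale, which corrects for gene length, Dusp1 was highest with 19.2 ± 4.28 (SD, n = 18), followed by Jun with 16.8 ± 3.72, Zfp36 with 14.9 ± 3.57 and Junb with 12.2 ± 2.58. Ier2 had 7.5 ± 1.98, Nr4a1 4.60 ± 2.30 and Egr1 4.34 ± 2.59. Atf3 had 1.18 ± 0.42 and Fos 1.13 ± 0.78, and Fosb was lowest with 0.16 ± 0.10. The ranges of every pair of neighbours in this order overlapped. Within libraries, Junb was above Ier2, Egr1 above Atf3 and Fos above Fosb in 18 of 18 animals, while Jun was above Zfp36 in 10, Atf3 above Fos in 11 and Nr4a1 above Egr1 in 12 of 18. The brakes Dusp1 and Zfp36 and the AP-1 subunits Jun and Junb were thus the abundant members in these kidneys, and Fos was scarce. The order at the top depends on the length used. Counts and RPKM imply 2373 bases for Dusp1 and 1809 for Junb, against 3311 and 2301 exon bases in GENCODE M21. For Jun (3189) and Zfp36 (3470) both lengths were equal. In CPM (library-size-scaled counts) Jun (mean 53.3) and Zfp36 (51.7) were above Dusp1 (45.5).

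**Figure D1:**
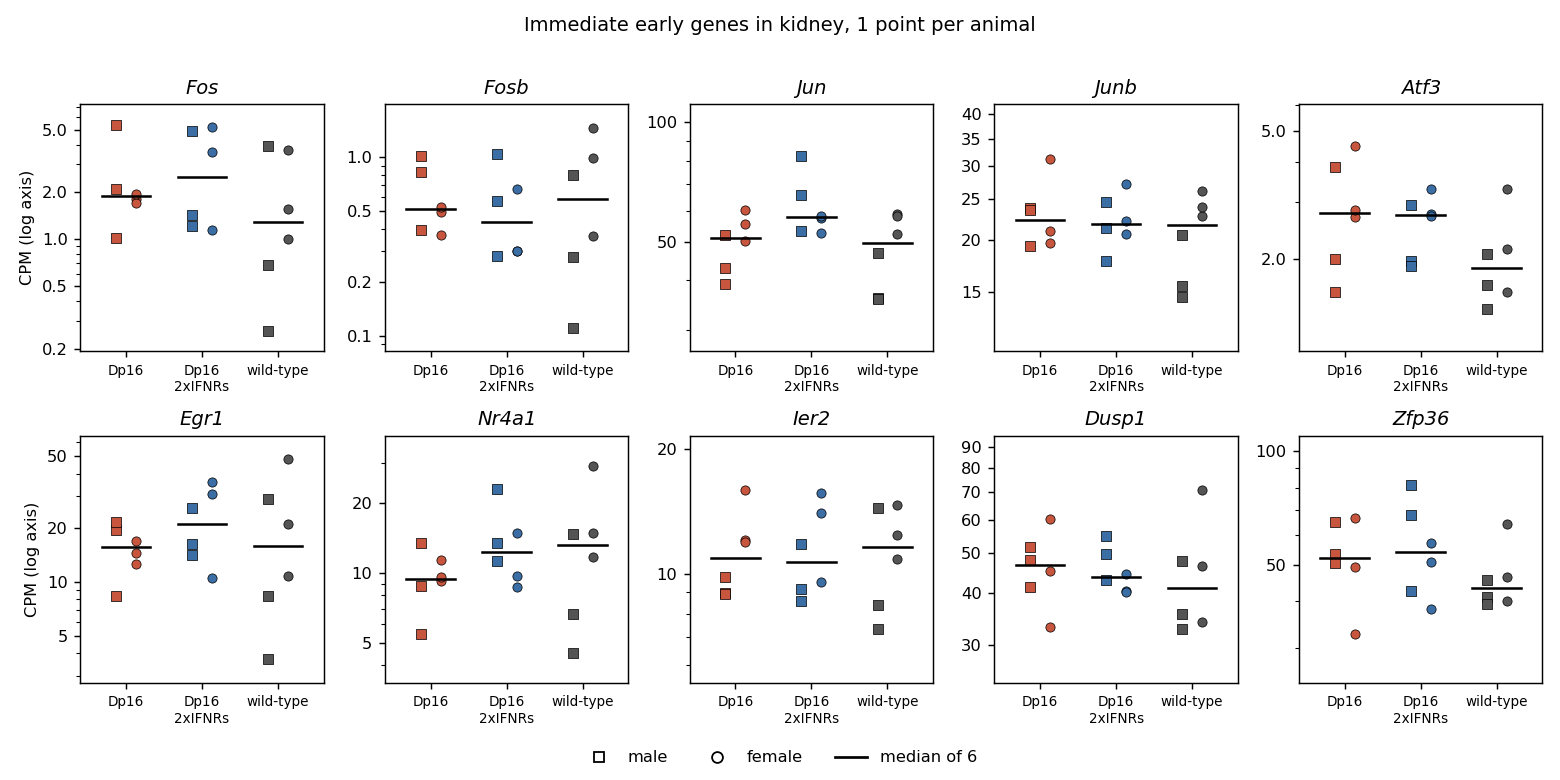
Level of each immediate early gene in every animal, in CPM (library-size-scaled counts, log axis), for Dp16, Dp16 2xIFNRs and wild-type kidneys. Squares are males, circles are females and bars are medians of 6 animals, and the 3 groups overlap for all 10 genes.

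Between genotypes no member passed the test, and each member's groups overlapped in all 3 comparisons. Levels below are in CPM, library-size-scaled counts, normalized with TMM factors. Differences are log2 folds from edgeR's quasi-likelihood test with sex as a term, with p adjusted by Benjamini-Hochberg over the 17575 genes and 0.05 as the threshold. In bulk tissue a lower level can mean fewer cells of a type or less RNA per cell, and these cannot be told apart.

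Fos was the most variable AP-1 subunit. It ranged from 1.02 to 5.35 CPM in Dp16 (median 1.87), from 1.14 to 5.21 in Dp16 2xIFNRs (median 2.50) and from 0.259 to 3.94 in wild-type kidneys (median 1.28). Over the 18 animals the highest level was 20.6 times the lowest, which rests on 14 counts in wild-type replicate 1 and 279 in Dp16 replicate 1. The 3 groups overlapped, and the lowest values were those of wild-type animals. The log2 fold was 0.33 ± 0.56 (SE, n = 6 per group, edgeR adjusted p = 0.838) for Dp16 over wild-type, and 0.65 ± 0.55 (95% interval -0.50 to 1.80, adjusted p = 0.577) for Dp16 2xIFNRs over wild-type.

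Fosb, the scarcest member, had 6 to 85 counts per library. It ranged from 0.369 to 1.02 CPM in Dp16 (median 0.512), from 0.279 to 1.04 in Dp16 2xIFNRs (median 0.435) and from 0.111 to 1.47 in wild-type kidneys (median 0.582). Wild-type animals held both the lowest and the highest value. The log2 folds were -0.14 ± 0.50 for Dp16 and -0.34 ± 0.50 for Dp16 2xIFNRs over wild-type (edgeR adjusted p = 0.928 and 0.775).

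Jun, the main AP-1 partner of Fos, came nearest to the threshold. It ranged from 39.2 to 60.1 CPM in Dp16 (median 51.2), from 52.7 to 82.2 in Dp16 2xIFNRs (median 57.9) and from 35.8 to 59.0 in wild-type kidneys (median 49.6). All 6 Dp16 2xIFNRs animals were above the wild-type median and above the Dp16 median, and the groups still overlapped. The log2 fold of Dp16 2xIFNRs was 0.38 ± 0.13 over wild-type (95% interval 0.11 to 0.66, unadjusted p = 0.00913, edgeR adjusted p = 0.111) and 0.32 ± 0.13 over Dp16 (unadjusted p = 0.0258, adjusted p = 0.850). Over 29 other settings the adjusted p against wild-type ran from 0.0508 to 0.323. For Dp16 over wild-type the log2 fold was 0.06 ± 0.13 (adjusted p = 0.870).

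Junb, which can replace Jun in AP-1 and tempers it, had the lowest biological coefficient of variation of the members, 15.8%, with Jun next at 16.2%. It ranged from 19.3 to 31.3 CPM in Dp16 (median 22.3), from 17.8 to 27.3 in Dp16 2xIFNRs (median 21.8) and from 14.6 to 26.2 in wild-type kidneys (median 21.7). The 3 medians lay close together. The log2 folds over wild-type were 0.18 ± 0.13 for Dp16 and 0.13 ± 0.13 for Dp16 2xIFNRs (edgeR adjusted p = 0.532 and 0.642).

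Atf3, a factor induced by cell stress, had the largest positive log2 fold of Dp16 over wild-type. It ranged from 1.58 to 4.48 CPM in Dp16 (median 2.78), from 1.91 to 3.29 in Dp16 2xIFNRs (median 2.74) and from 1.4 to 3.31 in wild-type kidneys (median 1.87). In Dp16 5 of 6 animals and in Dp16 2xIFNRs 6 of 6 were above the wild-type median. The log2 fold was 0.52 ± 0.22 for Dp16 (95% interval 0.06 to 0.98, unadjusted p = 0.0282, edgeR adjusted p = 0.214) and 0.36 ± 0.22 for Dp16 2xIFNRs over wild-type (unadjusted p = 0.115, adjusted p = 0.410).

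Egr1 ranged from 8.34 to 21.5 CPM in Dp16 (median 15.6), from 10.5 to 36.2 in Dp16 2xIFNRs (median 21.1) and from 3.71 to 48.2 in wild-type kidneys (median 15.9). The wild-type animals enclosed both other groups. The log2 folds over wild-type were -0.30 ± 0.43 for Dp16 and 0.18 ± 0.43 for Dp16 2xIFNRs (edgeR adjusted p = 0.799 and 0.871). Nr4a1 ranged from 5.43 to 13.5 CPM in Dp16 (median 9.42), from 8.73 to 23.2 in Dp16 2xIFNRs (median 12.4) and from 4.53 to 29.0 in wild-type kidneys (median 13.2). Only 1 of 6 Dp16 animals was above the wild-type median, with a log2 fold of -0.46 ± 0.34 (adjusted p = 0.551). For Dp16 2xIFNRs it was 0.05 ± 0.34 (adjusted p = 0.956). Ier2 ranged from 8.90 to 16.0 CPM in Dp16, from 8.59 to 15.7 in Dp16 2xIFNRs and from 7.34 to 14.6 in wild-type kidneys, and its log2 folds over wild-type were -0.02 ± 0.15 and 0.01 ± 0.15.

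The brakes Dusp1 and Zfp36 did not pass either. Dusp1 ranged from 33.1 to 60.3 CPM in Dp16 (median 46.7), from 40.3 to 54.9 in Dp16 2xIFNRs (median 43.8) and from 32.8 to 70.7 in wild-type kidneys (median 41.0). Zfp36 ranged from 32.8 to 66.5 CPM in Dp16 (median 52.0), from 38.1 to 81.3 in Dp16 2xIFNRs (median 54.0) and from 39.2 to 64.0 in wild-type kidneys (median 43.2). The 3 groups overlapped for both genes. The log2 folds over wild-type were 0.07 ± 0.17 and 0.03 ± 0.17 for Dusp1 and 0.19 ± 0.18 and 0.28 ± 0.18 for Zfp36, in Dp16 and in Dp16 2xIFNRs (edgeR adjusted p between 0.445 and 0.945).

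Counted over the class, 0 of 10 members passed for Dp16 over wild-type, where 4.23% of all genes tested did, and 1 of 10 (Atf3) had an unadjusted p under 0.05, against 17.1% of all genes. For Dp16 2xIFNRs over wild-type the counts were 0 of 10, against 4.79% of all genes, and 1 of 10 (Jun), against 18.2%. For Dp16 2xIFNRs over Dp16 they were 0 of 10, against 0.0171% of all genes, and 1 of 10 (Jun), against 4.71%. DESeq2 also called 0 members in each comparison. Groups that do not overlap were seen for 0 members in the 3 comparisons, against 1.3%, 1.56% and 0.0797% of all genes. The median log2 fold of the members was 0.07, 0.16 and 0.06, against -0.01, 0.01 and 0.00 for all genes tested. For Dp16 2xIFNRs over Dp16 the members other than Jun had log2 folds between -0.20 (Fosb) and 0.51 (Nr4a1). Both comparisons with wild-type use the same 6 wild-type libraries.

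**Figure D2:**
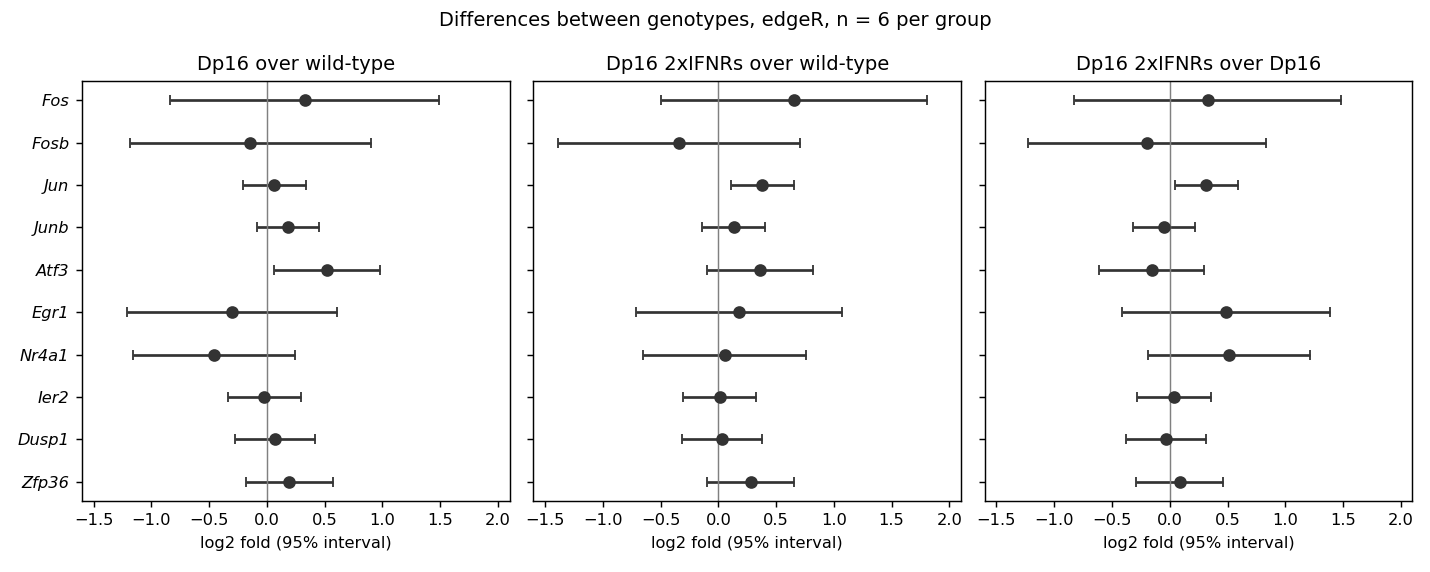
Log2 folds of the 10 immediate early genes with 95% intervals (edgeR, n = 6 per group) for Dp16 over wild-type, Dp16 2xIFNRs over wild-type and Dp16 2xIFNRs over Dp16. Intervals are widest for Fos, Fosb and Egr1, and those of Atf3 in the first panel and Jun in the other two exclude 0 before adjustment over all genes.

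Sex was marked in 1 member. Ier2 was lower in males, with 9.71 ± 2.13 CPM in males and 13.02 ± 2.21 in females (mean ± SD, n = 9 each). The lowest, median and highest levels were 7.34, 8.96 and 14.4 CPM in males and 9.55, 12.4 and 16.0 in females, so the sexes overlapped, and 1 of 9 males was above the female median. The log2 fold of males over females was -0.42 ± 0.12 (95% interval -0.68 to -0.16, edgeR adjusted p = 0.0107), and the call held in 27 of 27 other settings. That was 1 of 10 members lower and 0 higher in males, against 19.7% and 19% of all genes (38.8% in either direction). An unadjusted p under 0.05 was seen for 3 of 10 (Ier2, Junb and Atf3), against 46.5% of all genes. Junb had a log2 fold of -0.26 ± 0.11 (adjusted p = 0.0613), Atf3 of -0.41 ± 0.18 (adjusted p = 0.0739) and Jun of -0.19 ± 0.11 (adjusted p = 0.186). Junb passed without Dp16 2xIFNRs replicate 5 or 6 or Dp16 replicate 2 or 4 (adjusted p 0.0259 to 0.0445), Atf3 without wild-type replicate 6, Dp16 2xIFNRs replicate 1 or Dp16 replicate 5 (0.0164 to 0.0452), and Jun without Dp16 2xIFNRs replicate 6 (0.0262). Fos and Fosb had log2 folds of -0.03 ± 0.45 and 0.01 ± 0.41, Egr1 of -0.42 ± 0.35, Nr4a1 of -0.23 ± 0.28, Dusp1 of -0.04 ± 0.14 and Zfp36 of 0.11 ± 0.15. Within groups, the 3 males of Dp16 had 8.90 to 9.80 CPM of Ier2 and the 3 females 11.95 to 15.97, without overlap, while the sexes overlapped in Dp16 2xIFNRs (8.59 to 11.8 in males, 9.55 to 15.7 in females) and in wild-type kidneys (7.34 to 14.4 in males, 10.8 to 14.6 in females).

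The genotype differences of Jun were unequal in the sexes before adjustment. Jun had 53.3, 65.8 and 82.2 CPM in Dp16 2xIFNRs males, 39.2, 43.1 and 52.1 in Dp16 males and 35.8, 36.2 and 46.9 in wild-type males. It had 52.7, 57.6 and 58.1 CPM in Dp16 2xIFNRs females, 50.3, 55.6 and 60.1 in Dp16 females and 52.4, 58.3 and 59.0 in wild-type females. The Dp16 2xIFNRs males were thus above all wild-type males, and the females of the 3 groups overlapped. The difference between the male and the female log2 fold of Dp16 2xIFNRs over wild-type was 0.77 ± 0.20 (unadjusted p = 0.00127, edgeR adjusted p = 0.555), and Nr4a1 gave 1.64 ± 0.58 (unadjusted p = 0.0119, adjusted p = 1.00). For Dp16 over wild-type Fosb gave 1.95 ± 0.90 (unadjusted p = 0.0447, edgeR adjusted p = 0.631), and for Dp16 2xIFNRs over Dp16 Jun gave 0.56 ± 0.20 (unadjusted p = 0.0121, adjusted p = 0.953). No member passed this test of sex by genotype in any of the 3 comparisons. Of all genes 0.0171%, 0.00569% and 0% did, for Dp16 over wild-type, Dp16 2xIFNRs over wild-type and Dp16 2xIFNRs over Dp16. The share of all genes with an unadjusted p under 0.05 in this test was not counted, so the unadjusted values have no background beside them.

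Animals of the same group and sex differed widely in several members. The biological coefficient of variation is edgeR's estimate of the spread beyond counting error. Its fit had group and sex as separate terms, so it also holds differences of sex by genotype. It was 64.8% for Fos, 56.2% for Fosb, 50.5% for Egr1 and 39.5% for Nr4a1. It was 25.8% for Atf3, 21.7% for Zfp36, 20.2% for Dusp1, 18.5% for Ier2, 16.2% for Jun and 15.8% for Junb. The median of all genes tested was 14.2%. Each member was above edgeR's trend for genes of its level, in 10 of 10 cases against 30.7% of all genes. Egr1 was at 3.92 times its trend of 12.9%, Nr4a1 at 2.74 times its trend of 14.4% and Fos at 2.70 times its trend of 24.0%. Fos stood at the 97.8th and Egr1 at the 94.0th percentile of all genes. The SD of log2 CPM within group and sex was 0.192 for Jun, below the median of 0.208 over all genes tested. For the other members it was 0.239 (Junb) to 1.18 (Fos). These are descriptions without a test.

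**Figure D3:**
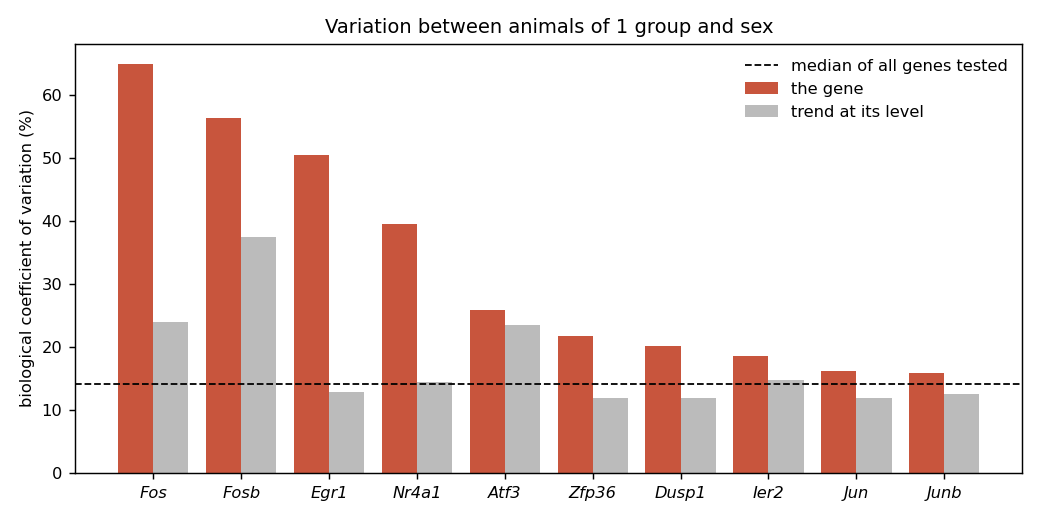
Biological coefficient of variation (%) of each immediate early gene beside edgeR's trend at its expression level, over 18 kidneys with group and sex as terms. Fos, Fosb, Egr1 and Nr4a1 lie between 39.5% and 64.8%, and the dashed line is the median of all genes tested, 14.2%.

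Some members moved together from animal to animal and others did not pass such a test. Log2 CPM was taken after the mean of each group and sex was removed, and the 45 pairs were tested by exact permutation within group and sex (46656 arrangements, two-sided, adjusted over the 45 pairs). Fos and Egr1 moved together most closely, with Pearson r = 0.926 and Spearman rho = 0.917 over 18 animals (exact permutation p = 0.000686, adjusted p = 0.0299). Without the 2 animals farthest from the median of Fos, r was 0.873. Within groups of 6, r was 0.741 in Dp16, 0.926 in Dp16 2xIFNRs and 0.982 in wild-type kidneys. Wild-type replicate 1, a male, had the lowest level of both genes, with 0.259 CPM of Fos and 3.71 of Egr1, while wild-type replicate 6, a female, had 3.70 and 48.2 CPM.

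Ier2 joined this pair in part. Its r was 0.846 with Egr1 (rho = 0.829, exact permutation p = 0.00133, adjusted p = 0.0299) and 0.833 with Fos (rho = 0.779, exact permutation p = 0.00240, adjusted p = 0.0342). Without the 2 animals farthest from the median of the first gene named, r was 0.737 for Egr1 and Ier2 and 0.712 for Fos and Ier2. In Dp16 its r was -0.02 with Egr1 and -0.07 with Fos, and it was 0.988 and 0.963 in Dp16 2xIFNRs and 0.957 and 0.988 in wild-type kidneys. Whether the groups differ in this was not tested.

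The brakes formed a pair of their own. Dusp1 and Zfp36 had r = 0.750 and rho = 0.754 (exact permutation p = 0.00304, adjusted p = 0.0342, n = 18), and r = 0.714 without the 2 animals farthest from the median of Dusp1. Within groups r was 0.981 in Dp16, 0.829 in Dp16 2xIFNRs and 0.777 in wild-type kidneys. Neither passed with Fos, with r = -0.23 for Fos and Dusp1 (rho = -0.28, exact permutation p = 0.381, adjusted p = 0.709) and r = -0.03 for Fos and Zfp36 (rho = -0.03, p = 0.887, adjusted p = 0.971). Wild-type replicate 2 had the highest Dusp1 of all, 70.7 CPM, and a Fos of 1.55 CPM. Dp16 replicate 4 had the second lowest Dusp1, 33.1 CPM, and the lowest Zfp36, 32.8 CPM, with a Fos of 1.94 CPM.

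**Figure D4:**
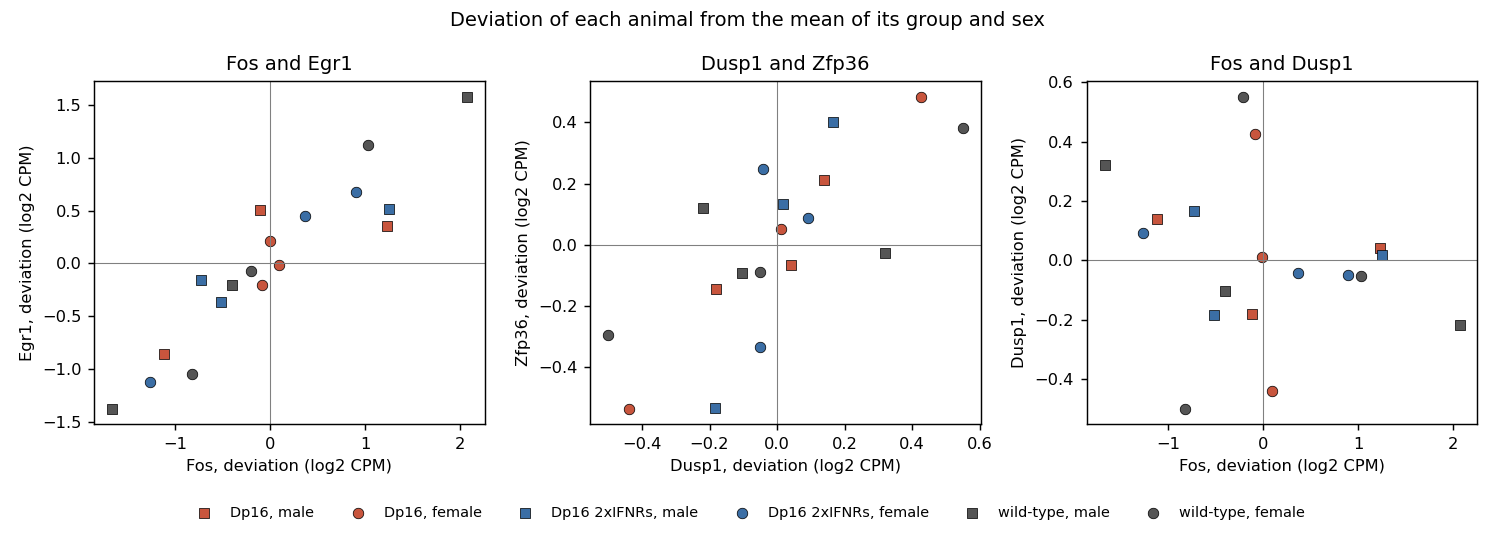
Deviation of each animal from the mean of its group and sex (log2 CPM) for Fos and Egr1, Dusp1 and Zfp36, and Fos and Dusp1, by group (colour) and sex (shape). The first panel follows a line (r = 0.926), the second does so less tightly (r = 0.750), and the third does not (r = -0.23).

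The AP-1 subunits did not pass with each other. Fos and Fosb had r = 0.306 (rho = 0.333, exact permutation p = 0.428, adjusted p = 0.714), and Fos and Jun had r = -0.08 (rho = -0.15, p = 0.824, adjusted p = 0.964). Fosb and Jun had r = 0.531 (rho = 0.542, exact permutation p = 0.0951, adjusted p = 0.447). Atf3 ran against Egr1, with r = -0.59 (exact permutation p = 0.0162, adjusted p = 0.146) and rho = -0.71 (p = 0.00279, adjusted p = 0.0328), so the call depends on the measure. Over the 45 pairs 4 passed by r and 5 by rho, 30 had a positive r, and the median r was 0.098.

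**Figure D5:**
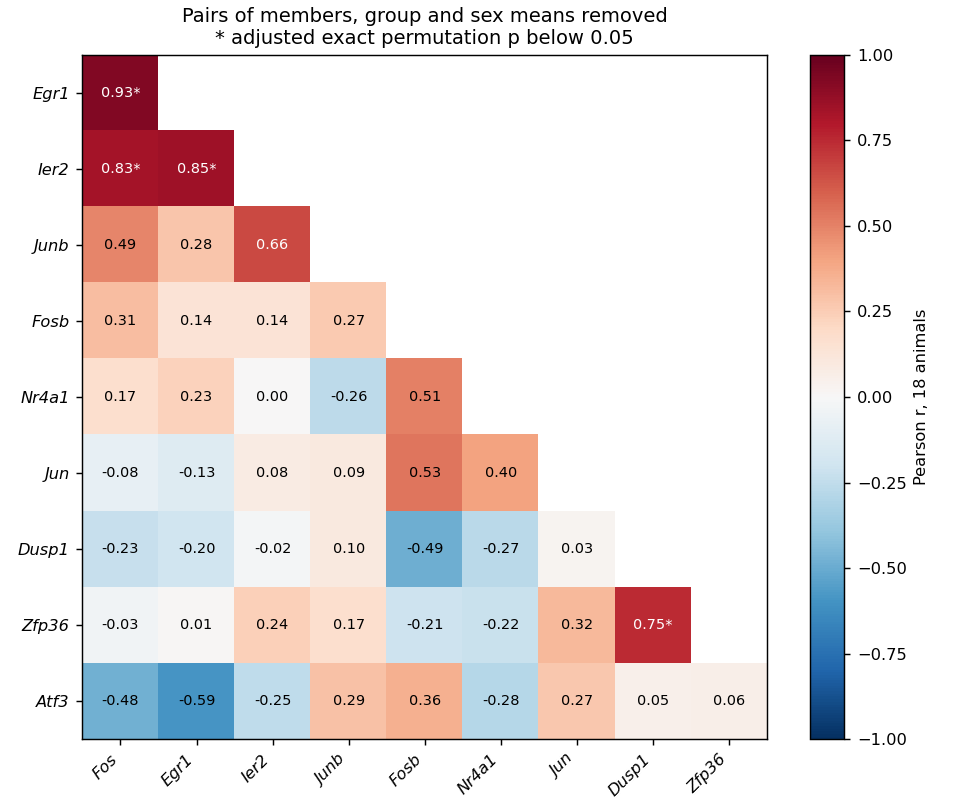
Pearson r between pairs of immediate early genes over 18 kidneys, with the mean of each group and sex removed, and stars for an adjusted exact permutation p under 0.05. The 4 starred pairs are Fos with Egr1, Fos with Ier2, Egr1 with Ier2 and Dusp1 with Zfp36.

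The 4 pairs kept a high r when single libraries were left out, and their calls were lost in many of these cases. Over 18 such fits r was 0.883 to 0.951 for Fos and Egr1, 0.747 to 0.919 for Egr1 and Ier2, 0.717 to 0.915 for Fos and Ier2 and 0.663 to 0.812 for Dusp1 and Zfp36, with calls in 11, 9, 5 and 4 of 18. No pair passed by r when wild-type replicate 2, 4, 5 or 6, or replicate 4, 5 or 6 of Dp16 2xIFNRs, was left out. By rho 1 pair passed without replicate 4 and 3 pairs without replicate 5 of Dp16 2xIFNRs, and 0 in the other 5 of these cases. Fos was also set against 12 other measures in the same way, the mean levels of 10 marker lists, the share of mitochondrial counts and the first number in the sample label. None passed, with the closest being the neutrophil markers (r = 0.486, rho = 0.389, exact permutation p = 0.181, adjusted p = 0.845, and r = 0.276 without the 2 farthest animals).

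Outside the class, each of 17565 genes was set against the mean of the 10 members over the 18 animals. Log2 CPM was used after the mean of each group and sex was removed, with each member scaled to the same spread. The highest r were those of Gm49760 (r = 0.888), Ankmy2 (0.845), Rpp25 (0.793), Gm49146 (0.790), Cul1 (0.775), Rdh18-ps (0.774), 0610043K17Rik (0.770) and Ttc27 (0.762). Of the 63 tested genes on a list of other early response genes 0 were among the 30 highest. A positive r with that mean was seen for 38 of the 63, against 52.9% of all genes, and their median r was 0.064, against 0.019. Of the members themselves, each of which is part of that mean, Ier2 was most like it (r = 0.759) and Atf3 least (r = 0.091). These values share libraries and depth and carry no test.

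The wider early response was read from that list of 67 genes, 63 of which were tested. In Dp16 over wild-type 2 were higher and 1 lower, 3.17% and 1.59% against 3.17% and 1.06% of all genes, and 15 of 63 had an unadjusted p under 0.05, against 17.1% of all genes. Hbegf, a growth factor that binds the EGF receptor, had 14.1 to 33.2 CPM in Dp16 (median 20.9) and 10.3 to 18.9 in wild-type kidneys (median 11.8), a log2 fold of 0.66 ± 0.16 (n = 6 per group, edgeR adjusted p = 0.0254). Maff, a small Maf transcription factor, had 3.34 to 6.10 CPM in Dp16 and 1.97 to 3.74 in wild-type kidneys (0.62 ± 0.16, adjusted p = 0.0329). Ier5l, a relative of Ier5, had 7.63 to 13.2 CPM in Dp16 and 10.9 to 17.8 in wild-type kidneys (-0.46 ± 0.12, adjusted p = 0.0350). All 6 Dp16 animals were above the wild-type median for Hbegf and Maff, and 5 of 6 below it for Ier5l.

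In Dp16 2xIFNRs over wild-type 3 of the 63 were higher and 0 lower, 4.76% and 0% against 3.17% and 1.61% of all genes, with 11 of 63 at an unadjusted p under 0.05, against 18.2% of all genes. Egr2, a relative of Egr1, had 0.577 to 1.89 CPM in Dp16 2xIFNRs (median 1.09) and 0.101 to 0.884 in wild-type kidneys (median 0.305), a log2 fold of 1.63 ± 0.45 (n = 6 per group, edgeR adjusted p = 0.0429), from 5 to 105 counts per library. Ier3, which limits cell death, had 26.4 to 60.3 CPM in Dp16 2xIFNRs and 20.9 to 41.5 in wild-type kidneys (0.51 ± 0.14, adjusted p = 0.0382). Tnfaip3, a brake on NF-kB, had 5.84 to 7.56 CPM in Dp16 2xIFNRs and 4.27 to 6.70 in wild-type kidneys (0.42 ± 0.11, adjusted p = 0.0372). Hbegf there had a log2 fold of 0.57 ± 0.16 (adjusted p = 0.0507), and Egr2 in Dp16 over wild-type 1.18 ± 0.46 (adjusted p = 0.167). The groups overlapped for each of these genes. In Dp16 2xIFNRs over Dp16 0 of 63 passed in edgeR and in DESeq2, and 2 of 63 had an unadjusted p under 0.05, against 4.71% of all genes, Homer1 (0.18 ± 0.08) and Maff (-0.33 ± 0.16). The third by p was Plk2, at 0.26 ± 0.13.

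Each of these calls was lost without some single libraries. Hbegf was lost without wild-type replicate 1 (edgeR adjusted p = 0.0626) or Dp16 replicate 5 (adjusted p = 0.0545). Maff was lost without wild-type replicate 3, 4 or 6 or Dp16 replicate 2, 3 or 5 (adjusted p 0.0538 to 0.0981), and Ier5l without wild-type replicate 1, 3 or 5 or Dp16 replicate 1, 3, 5 or 6 (0.0527 to 0.0876). Ier3 was lost without wild-type replicate 1, 3, 4 or 5, or replicate 1, 4, 5 or 6 of Dp16 2xIFNRs (adjusted p 0.0572 to 0.106). Tnfaip3 was lost without wild-type replicate 1 to 5, or replicate 1, 2, 4, 5 or 6 of Dp16 2xIFNRs (0.0555 to 0.0900). Egr2 was lost without wild-type replicate 1 to 5, Dp16 2xIFNRs replicate 1, 2, 5 or 6 or Dp16 replicate 5 (0.0511 to 0.115). Without the sex term 0 of the 63 passed in either comparison with wild-type. Macrophage markers moved with the same groups. Of 12 such genes 9 were higher in Dp16 and 10 in Dp16 2xIFNRs over wild-type, with summed levels of 285 to 349 CPM in Dp16, 272 to 355 in Dp16 2xIFNRs and 183 to 257 in wild-type kidneys. Lymphocyte markers were higher in 4 and 3 of 12, with sums of 192 to 688, 141 to 460 and 74.0 to 127 CPM, and tubule injury markers in 6 and 6 of 12, with sums of 1307 to 2540, 1271 to 2279 and 965 to 2004 CPM. In Dp16 and wild-type kidneys most of the lymphocyte sum came from Igkc and Ighm. Their means were 237 and 88.2 CPM in Dp16, of a mean sum of 341. In wild-type kidneys they were 74.9 and 19.4 CPM, of a mean sum of 102. Of all genes 3.17% were higher in each comparison with wild-type. The part of these markers in the early gene differences was not tested.

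Of 33 tested kinases and transcription factors upstream of the class, 0 passed for Dp16 over wild-type, against 4.23% of all genes. For Dp16 2xIFNRs over wild-type 1 passed (3.03%), against 4.79% of all genes, and for Dp16 2xIFNRs over Dp16 0 passed, against 0.0171%. Rps6ka1, a kinase activated by ERK, had 25.7 to 34.3 CPM in Dp16 2xIFNRs and 22.5 to 29.5 in wild-type kidneys, a log2 fold of 0.29 ± 0.07 (edgeR adjusted p = 0.0280). That call was lost without wild-type replicate 1, 2 or 3, or replicate 4, 5 or 6 of Dp16 2xIFNRs (adjusted p 0.0596 to 0.0834). The same call was also lost without the sex term (adjusted p = 0.0995) and with 2 groups alone (0.0525). In Dp16 over wild-type the log2 fold of Rps6ka1 was 0.22 ± 0.07 (adjusted p = 0.0959). There the gene passed with age (adjusted p = 0.0400), the first number of the sample label (0.0221) or the replicate number (0.0316) as a further term. Mapk8, a kinase of Jun, had 0.21 ± 0.08 in Dp16 2xIFNRs (adjusted p = 0.131). The cyclic AMP kinase gene Prkacb had -0.15 ± 0.06 in Dp16 (adjusted p = 0.206) and, over Dp16, 0.09 ± 0.06 in Dp16 2xIFNRs. In that last comparison Creb1, the cyclic AMP response factor, had 0.21 ± 0.08 and Prkaca -0.08 ± 0.05 (adjusted p = 0.850 each).

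Of 14 inducible heat shock genes, which mark stress, 1 was higher in Dp16 (Cryab, log2 fold 0.43 ± 0.09, edgeR adjusted p = 0.00647) and 2 in Dp16 2xIFNRs over wild-type (Hsp90aa1, 0.48 ± 0.07, adjusted p = 0.000513, and Cryab, 0.30 ± 0.09, adjusted p = 0.0479). These were 7.14% and 14.3% of the list, against 3.17% of all genes higher in either comparison. In both comparisons 0 of the 14 were lower. Log2 folds were positive for 8 of 14 in Dp16 and 11 of 14 in Dp16 2xIFNRs, with medians of 0.03 and 0.16. Hspa1a and Hspa1b were among the negative ones in Dp16 (-0.22 and -0.13). The 8 defining kidney genes, Umod among them, summed to 13179 to 15932 CPM in the 18 libraries. Wild-type replicate 5 stood apart in adrenal markers, with 89.4 CPM against 3.40 to 13.8 in the other 17 libraries. Without it 0 members passed in the 3 genotype comparisons.

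Between the sexes many genes of the wider early response passed. Of the 63 other early genes 30 were lower and 4 higher in males, 47.6% and 6.35% against 19.7% and 19% of all genes, and their median log2 fold was -0.30 against -0.03 for all genes. Cebpd, a transcription factor of the acute phase, had 6.50, 12.2 and 18.8 CPM in males and 11.1, 39.1 and 45.8 in females (lowest, median and highest), a log2 fold of -1.63 ± 0.22 (n = 9 each, edgeR adjusted p = 5.12e-06). Klf10 had a log2 fold of -0.96 ± 0.16, Phlda1 of -0.59 ± 0.10, Klf4 of -0.48 ± 0.08 and Spry2 of -0.42 ± 0.07 (adjusted p at most 0.000143). Hbegf was higher in males, with 11.6, 24.4 and 34.4 CPM in males and 9.19, 13.4 and 17.4 in females (0.87 ± 0.13, adjusted p = 2.90e-05). The other 3 genes higher in males, named here after their values were seen, were Tiparp, Homer1 and Dusp4.

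Upstream of the class, 9 of 33 genes were higher and 5 lower in males, 27.3% and 15.2% against 19% and 19.7% of all genes. Braf, a kinase at the head of the ERK cascade, had a log2 fold of 0.67 ± 0.07, and Map2k2 and Mapk8 0.25 ± 0.04 and 0.36 ± 0.06. Mapk3, which encodes ERK1, had -0.41 ± 0.04 and Map2k1 -0.33 ± 0.05 (edgeR adjusted p at most 0.000101 for each of these 5). Cell type markers differed with sex too. Of 12 endothelial markers 9 were lower in males, with sums of 719 to 1035 CPM in males and 961 to 1221 in females. Smooth muscle markers were lower in 6 and higher in 1 of 8, with sums of 267 to 381 CPM in males and 303 to 401 in females. Tubule injury markers were lower in 7 and higher in 2 of 12, with sums of 965 to 1361 CPM in males and 1677 to 2540 in females. Spp1 was the largest part of these sums, with means of 613 CPM in males and 1384 in females, of mean sums of 1217 and 2074. Proximal tubule markers were higher in 4 and lower in 5 of 12, with sums of 28304 to 33539 CPM in males and 23234 to 27306 in females, while the median log2 fold of the list was -0.12. Their part in the sex differences was not tested, and macrophage markers were called in 0 of 12 (unadjusted p under 0.05 in 1). On the RPKM scale the median log2 fold of all genes between the sexes shifts by -0.106. The calls there split into 1928 higher and 5883 lower in males, against 3347 and 3466 on counts. On that scale 4 members (Ier2, Junb, Atf3 and Jun) were lower in males. The RPKM values of the members carry no TMM factors, which were 0.931 to 0.991 in males and 1.03 to 1.07 in females. The part of these factors in the shift was not tested.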

How the data were processed

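PolyA RNA of 18 kidneys was sequenced by the authors with a strand-specific kit, per the labels' protocols. The authors deposited raw counts per gene and RPKM values. FastQC 0.11.5, bcl2fastq, HISAT2 2.1.0, SAMtools 1.5, HTSeq 0.6.1 and the build GRCm38 are named per the submitters' processing notes. How the deposited RPKM values were made and the strand setting of the counting are not given in the sources used here.

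Counts were analysed in R 4.3.3 with edgeR 4.0.16, using its filter (minimum count 10, minimum total 15, 17575 genes kept), TMM factors and the quasi-likelihood test with genotype and sex, on all 18 libraries, adjusted by Benjamini-Hochberg. CPM values on a log2 scale used a prior count of 2. The test was checked on simulated data. Alternatives were other filters and normalizations, no sex term, age, 2 groups alone, a replicate block, numbers in the sample labels as a covariate or a random block, DESeq2 1.42.0, limma 3.58.1 on log2(RPKM + 0.1) and each library left out. No 2 libraries agreed within sampling noise (lowest chi-square per degree of freedom 18.4). Mitochondrial counts were 6.34 to 10.9%.

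Named genes were all members, up to 6 called genes of smallest p (or the 3 of smallest p) per list and comparison, and the 8 genes most like the members' mean. Some genes that this rule names are not reported here. The members, lists and tests were chosen with earlier results of these data known. The other settings for named genes and for the sex counts, and the left-out libraries for pairs, were added after the data were seen.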

Additional observations from a re-analysis of the deposited data

Results flagged for a closer look

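In wild-type kidneys Zfp36 was far higher in replicate 2, a female, than in the other 5, with 64.0 CPM against 46.2 in the next animal. On the log2 CPM scale the gap to the next animal was 0.665 of the group's range, above Dixon's critical value of 0.625 for 6 samples. It was 1 of 30 groups checked (10 members in 3 genotypes), and chance alone passes about 1 in 20. The same animal had the highest Dusp1, 70.7 CPM.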

How the results depend on the processing

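In the 3 genotype comparisons 0 members were called under every alternative run, including DESeq2 and each left-out library. Between males and females 1 member was called, and 2 without the filter on low counts, 2 among genes averaging 1 or more in log2 CPM, 4 with limma on log2(RPKM + 0.1) and 1 to 3 with libraries left out. Of the other early genes, 3 were called for Dp16 over wild-type, against 5 without the filter, 0 without sex, 7 with DESeq2, 1 with 2 groups alone and 0 to 3 with libraries left out. For Dp16 2xIFNRs over wild-type 3 were called, against 0 without sex, 0 with age, 6 with DESeq2 and 0 to 4 with libraries left out. Over all genes, Dp16 over wild-type gave 744 calls, against 190 without sex, 1236 with DESeq2, 453 with 2 groups alone and 429 to 815 with libraries left out. Dp16 2xIFNRs over wild-type gave 841, against 234 without sex, 1287 with DESeq2 and 526 to 920. Dp16 2xIFNRs over Dp16 gave 3, against 3 to 4. Of the 45 pairs 4 were called, against 0 to 4. The cause of these changes was not tested. No called member and no named gene outside the class changed sign. Members that were not called did so in several comparisons. Ier2 changed sign in 15 of 29 settings for Dp16 2xIFNRs over wild-type, and Fosb in 16 of 26 between the sexes. Signs of genes that were not named were not compared.

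The replicate numbers are the sample numbers in the titles and were not taken as pairs. Same-numbered animals had correlations of -0.06 to 0.22, over 0.1 in 3 of 18 pairs. Differently numbered animals were not compared in this way, so these values cannot show whether the numbers pair the animals. With the replicate block 2 members were called between the sexes. Another number in the sample labels, whose meaning they do not give, has 12 values, 5 of them shared by several animals. As a random block in limma (correlation 0.0778) it left 0 members called in each genotype comparison and 1 between the sexes.

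Fos and Fosb, with 14 to 279 and 6 to 85 counts per library, have the widest intervals, which include sizeable differences in either direction.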
